A study of Rattus norvegicus with 12 samples.

Results

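The comparison described here is that of twice-weekly activity (PA) with a sedentary cage (SED) in the left ventricle of the rat heart, and it rests on 8 of the 12 arrays of the series, 4 PA arrays and 4 SED arrays. All rats were female Sprague-Dawley animals of 16 months. PA animals had 2 sessions of 1 hour of physical activity a week in a large box. SED animals lived in a standard cage only. The remaining group of 4 arrays (EX, voluntary exercise) enters through the estimate of the spread and as a level set beside PA and SED. Near the end, EX is also set against PA by counts of probe sets. The labels name no transgene, drug or surgery in any group. The question is whether limited, intermittent activity over life goes with a different gene expression in the ageing heart.

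RNA was measured on Affymetrix Rat 230 2.0 arrays, whose unit is the probe set, several short oligonucleotides that together read 1 transcript. Levels are on the log2 scale, so that a difference of 1 is a doubling. Of 31042 probe sets that are not controls, the 18626 in the upper 60% by mean log2 over the 12 arrays were tested, and they held 10244 named genes. The last probe sets inside this limit had a mean of 4.943 (among them Cmtm4, Supt3h and Rbfox2) and the first outside it a mean of 4.9425 (among them Rims1, Rbm24 and Kcne4). The design text speaks of 12 animals per group and 4 animals pooled per array, which would fill 3 arrays, while 4 are listed per group. The labels do not say which animals are on which array, so the p-values measure the spread between these arrays, which are pools.

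Ventricular muscle draws most of its ATP from the oxidation of fatty acids in mitochondria. The fatty acids reach the cell in part from triglyceride-rich lipoproteins, which the very low density lipoprotein receptor (Vldlr) helps to capture. Mitochondrial content depends on coactivators such as Ppargc1a (PGC-1alpha), on the transcription machinery of mitochondrial DNA (Tfam, Tefm, the Mterf proteins) and on mitochondrial ribosomes, and endurance training is known to act on several of these in muscle.

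All 9 cardiomyocyte markers on the array (among them Myh6, Tnnt2, Ryr2 and Myl2) lay above the limit, while 8 of 10 mast cell markers and 7 of 12 skeletal muscle markers lay below it. Results are given with and without SED 1 and SED 3, as the plan of this comparison asked. SED 1 stood apart in most of the measures below. SED 3 was inside the range of the other arrays for correlation and extreme values, but not for leukocyte and macrophage markers. SED 1 held the lowest of the 8 values in 37.8% of tested probe sets and the highest in 24.4%, against 6.65% to 12.4% and 7.10% to 13.7% for the other 7 arrays, and its mean correlation with the other 11 arrays was 0.938 against 0.977 to 0.981. The gap between the 3' and 5' control probe sets of Gapdh was 1.56 on SED 1, 1.14 to 1.20 on the other SED arrays and 0.96 to 1.22 on PA arrays. For actin it was 1.70 on SED 1, 1.67 on SED 3, 1.47 on SED 2 and 1.42 on SED 4. PA arrays had an actin gap of 1.37 to 1.49 and EX arrays 1.46 to 1.63. SED 3 was the highest of the 8 arrays for 27 of 27 measured leukocyte and macrophage markers; in such bulk RNA, more cells of a type and more RNA per cell cannot be told apart. The closest pair of arrays, PA 1 and PA 4, correlated at 0.990, and no arrays were identical.

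Between PA and SED, 0 of 18626 probe sets (0%) reached an adjusted p under 0.05 (limma, Benjamini-Hochberg over all of them). That held with all 12 arrays in the fit (smallest adjusted p 0.164), without SED 1 (0.179), without SED 3 (0.0914) and without both (0.0745). At an unadjusted p under 0.05 there were 2840 probe sets with all arrays, 1728 higher and 1112 lower in PA, where an even spread of p-values would give 931. Without SED 1 and SED 3 there were 2285, 1362 higher and 923 lower. So no gene below is said to have risen or fallen; the values are levels and differences of means.

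Among named genes, 751 (7.33%) were higher and 527 (5.14%) lower in PA at an unadjusted p under 0.05. The 4 PA and 4 SED arrays did not overlap for 412 genes with PA above (4.02%) and 294 with PA below (2.87%). The shares at that unadjusted p were 5.79% higher and 4.29% lower without SED 1, 9.71% and 5.58% without SED 3, and 5.68% and 4.19% without both. The shares without overlap, which grow as arrays are left out, were 5.77% and 3.92%, 7.73% and 4.94%, and 12% and 7.69%. Of the 1278 genes at that unadjusted p, 640 stayed there with the same sign without SED 1 and SED 3, and 0 turned sign. In all 4 fits, 500 genes were there with one sign, 257 higher and 243 lower. Of these, 359 had no overlap between the 8 arrays. The fits share the PA arrays and the SED arrays that were kept, and the 1278 genes were picked with all arrays. A turned sign was therefore unlikely from the start, and these counts are not an independent check.

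The probe set with the smallest p of all was one of Vldlr, the lipoprotein receptor named above; it was singled out after its values were seen. On this probe set, the third of 4 by brightness, the PA arrays read 7.02, 6.94, 7.11 and 7.24, and the SED arrays 5.18, 5.82, 6.28 and 5.86. Every PA array lay above every SED array, and SED 2 and SED 4, the SED arrays kept in all fits described above, lay between the other SED arrays. The PA mean was 2.45-fold the SED mean, a difference of 1.29 ± 0.19 (SE, n = 4 and 4; adjusted p = 0.164, limma). It was 1.09 without SED 1, 1.46 without SED 3 and 1.24 without both (adjusted p = 0.0745, limma). With array weights, which lower the influence of outlying arrays, the difference was 1.17 and the adjusted p 0.0442 (limma). It was the only call under that setting, and among the other alternatives run Vldlr was under 0.05 only without SED 1 and SED 3 after quantile normalization (1.20, adjusted p = 0.0473, limma). The EX arrays read 6.66, 6.71, 7.11 and 6.88 on the same probe set.

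Vldlr had 3 more tested probe sets, and in each the 4 PA arrays lay above the 4 SED arrays. On the brightest, which stands for the gene in the counts, PA read 10.07, 10.33, 10.16 and 10.16 and SED 9.55, 10.04, 9.94 and 9.89. That difference was 0.33 ± 0.11 (adjusted p = 0.244, limma), and 0.22 without SED 1 and SED 3. The dimmest probe set differed by 0.57 ± 0.16, and the second by brightness by 0.25 ± 0.13. The 4 probe sets gave one direction but sizes from 0.25 to 1.29, and the cause of that range was not tested.

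**Figure D1:**
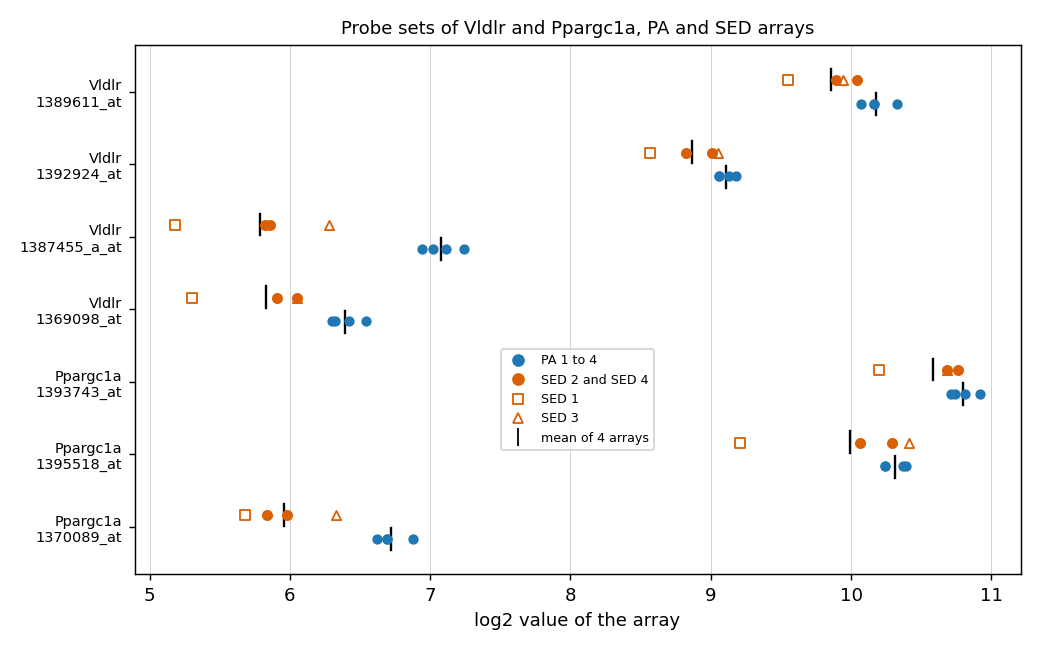
Log2 values (horizontal axis) of the 4 tested probe sets of Vldlr and the 3 of Ppargc1a on each PA array (filled blue circles) and SED array (orange; open square SED 1, open triangle SED 3), with black ticks for the means of 4 arrays. PA lay apart from SED in all 4 Vldlr probe sets, most widely on the third by brightness, but in only 1 of 3 probe sets of Ppargc1a.

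Ppargc1a, the coactivator of mitochondrial biogenesis, also gave readings that differed between probe sets. On its brightest one PA read 10.81, 10.74, 10.71 and 10.92 and SED 10.20, 10.76, 10.68 and 10.68. The groups overlapped, SED 1 was the low array, and the difference of 0.22 ± 0.12 went to 0.075 without SED 1 and SED 3. On the dimmest, chosen after its values were seen, PA read 6.69, 6.69, 6.62 and 6.88 and SED 5.68, 5.84, 6.33 and 5.98. There the groups did not overlap, and the difference was 0.76 ± 0.15 (adjusted p = 0.164, limma) and 0.81 without SED 1 and SED 3 (adjusted p = 0.201, limma).

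All gene lists were chosen with earlier results of these data known, so a count above the share of all genes is no independent result. Fatty acid uptake and oxidation, the list that holds Vldlr, had 25 of 30 tested genes higher in PA and 5 lower. Its median difference was 0.12, beside 6136 of 10244 higher, 4077 lower and a median of 0.048 over all tested genes. At an unadjusted p under 0.05 there were 2 of the 30, both higher, beside 7.33% of all genes, so the list was not above the background there; 3 lay higher without overlap, beside 4.02%. Averaged over the list, the PA arrays read 11.01 to 11.10 and the SED arrays 10.92 to 10.99, without overlap. Among the 34 pathway lists, the array means of pyruvate dehydrogenase and the citric acid cycle, calcium cycling, ion channels of excitation and general transcription factors did not overlap either. PA lay above in each, but all tested genes shifted that way too, and no array mean over all genes was set beside them. The medians of calcium cycling (0.035) and ion channels (0.038) lay under the 0.048 of all tested genes. Without SED 1 and SED 3 the median was 0.081 with 24 of 30 higher, beside 0.035 over all genes, and 0 of the 30 were at that unadjusted p. Hadha, the alpha subunit of the mitochondrial trifunctional protein of beta-oxidation, read 10.68, 10.83, 10.74 and 10.69 in PA and 10.61, 10.59, 10.58 and 10.57 in SED. Its groups lay apart by little, a difference of 0.15 ± 0.073 (adjusted p = 0.356, limma) and 0.16 without SED 1 and SED 3. On its brightest probe set Acsl1, which activates long-chain fatty acids to acyl-CoA, differed by 0.20 ± 0.090 (0.13 without SED 1 and SED 3). Decr1, which acts on unsaturated fatty acids, differed by 0.19 ± 0.092, and both overlapped. The other tested probe set of Acsl1 differed by 0.32 ± 0.12 (0.21 without SED 1 and SED 3), without overlap. Pdk4, the kinase that turns pyruvate away from the citric acid cycle, differed by 0.17 ± 0.26 (0.49 without SED 1 and SED 3), and Ucp3, an uncoupling protein of muscle mitochondria, by -0.44 ± 0.28 (-0.21 without them), both with overlap.

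The lists of the mitochondrial machinery gave other counts when SED 1 and SED 3 were left out. Of the 39 genes of respiratory complexes I and II, 32 were higher in PA, with a median of 0.095, but without SED 1 and SED 3 only 14 were higher and 24 lower, with a median of -0.018. For complexes III, IV and ATP synthase the count went from 27 of 33 higher (median 0.065) to 10 higher and 23 lower (median -0.020). Mitochondrial ribosomal proteins went from 32 of 41 higher (median 0.10) to 17 higher and 23 lower (median -0.0050). SED 1 was the lowest of the 8 arrays for 27 of the 39, 27 of the 33 and 26 of the 41 genes. Sdha, the flavoprotein subunit of complex II, is an example: PA read 11.85, 11.91, 11.87 and 11.93, SED 11.35, 11.83, 11.70 and 11.78, and the difference of 0.23 ± 0.10 was 0.085 without SED 1 and SED 3. The enzymes of pyruvate dehydrogenase and the citric acid cycle had 19 of 22 genes higher (median 0.11) and 15 of 22 without the 2 arrays (median 0.026).

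Regulators of mitochondrial biogenesis had the highest median of the 34 pathway lists with all arrays, 0.19, with 22 of 26 genes higher and 3 lower. At an unadjusted p under 0.05 there were 6 of the 26 higher (7.33% of all genes) and 0 lower (5.14%), and 3 lay higher without overlap (4.02%). Without SED 1 and SED 3, 20 of 26 were higher with a median of 0.086, and 4 higher (5.68% of all genes) and 1 lower (4.19%) were at that p. Mterf1, which binds mitochondrial DNA and was first described as a transcription terminator, read 7.99, 8.11, 8.22 and 8.21 in PA and 7.56, 7.66, 7.76 and 7.69 in SED. No array crossed over, and the difference was 0.47 ± 0.087 (adjusted p = 0.164, limma) and 0.46 without SED 1 and SED 3. Mterf3, of the same family, read 8.98, 8.99, 8.97 and 8.89 against 8.07, 8.46, 8.57 and 8.79, again without overlap, a difference of 0.49 ± 0.13. Tfam, which packages mitochondrial DNA, differed by 0.25 ± 0.094 and Tefm, the mitochondrial elongation factor, by 0.46 ± 0.18, both with overlap; Tefm was at 0.17 without SED 1 and SED 3.

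**Figure D2:**
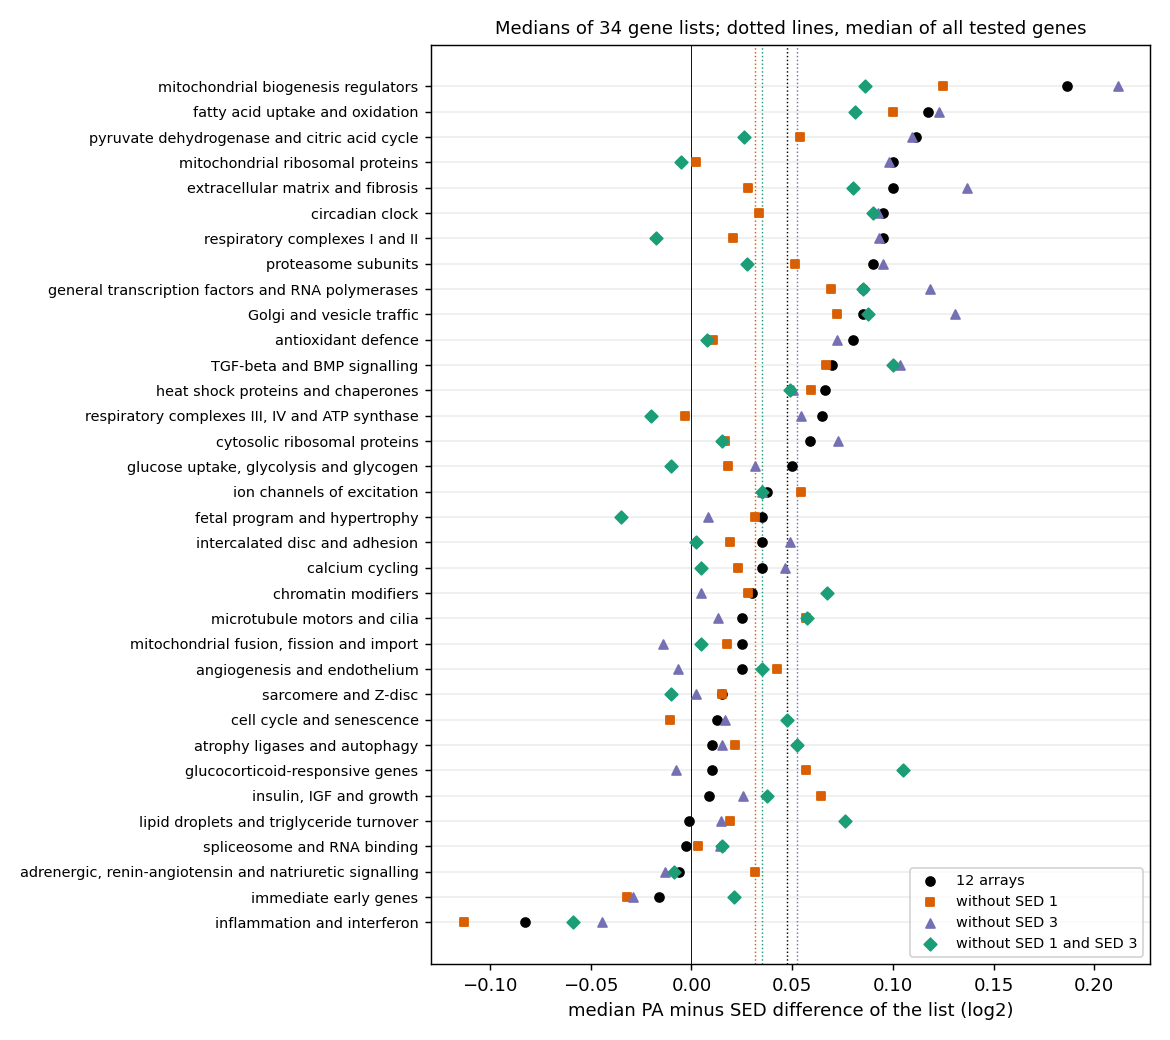
Median PA minus SED difference (log2, horizontal axis) of each of 34 pathway lists with 12 arrays (black circles), without SED 1 (orange squares), without SED 3 (violet triangles) and without both (green diamonds); dotted lines give the median of all tested genes in each fit. The respiratory complexes and mitochondrial ribosomal proteins cross 0 without SED 1 and SED 3, whereas general transcription factors (0.085 in both fits) and Golgi and vesicle traffic do not.

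Of 52 general transcription factors and RNA polymerase subunits, 8 were higher (beside 7.33% of all genes) and 1 lower (5.14%) at an unadjusted p under 0.05, 6 lay higher without overlap (4.02%), and 38 were higher and 14 lower. The median was 0.085 with all arrays and also 0.085 without SED 1 and SED 3, where 37 were higher and 5 were at that p (5.68% of all genes), all higher. After quantile normalization between arrays the median was 0.0048. As this list too was chosen with earlier results known, its counts beside all genes are no independent result. Taf4b, a subunit of the TFIID complex that recognises promoters, read 7.49, 7.74, 7.50 and 7.42 in PA and 6.82, 6.86, 6.70 and 6.90 in SED. The gap between the groups was wider than the range within either, and the fold was 1.64 (difference 0.72 ± 0.11, adjusted p = 0.164, limma; 0.66 without SED 1 and SED 3). Gtf2e1, a subunit of TFIIE, read 6.27, 6.64, 6.79 and 6.65 against 5.90, 5.70, 5.75 and 5.49, a fold of 1.84 (0.88 ± 0.19). Taf5, also of TFIID, read 6.46, 7.11, 6.76 and 6.59 against 5.05, 6.13, 6.12 and 5.15. Its groups did not overlap either, but SED 1 and SED 4 lay well below the other SED arrays (difference 1.12 ± 0.31). Med6, of the Mediator complex, differed by 0.51 ± 0.16 and by 0.33 without SED 1 and SED 3. Polr1f, a subunit of RNA polymerase I that the list does not hold, had on its brightest probe set the highest difference among genes, each by its brightest probe set, at an unadjusted p under 0.05. It was 1.27 ± 0.38, with SED 1 at 4.47 and the other SED arrays at 6.11 to 6.73; it was 0.97 without SED 1 and SED 3. Its other 2 tested probe sets differed by 0.52 ± 0.29 and 0.37 ± 0.20, both with overlap.

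Of 39 genes of Golgi and vesicle traffic, 27 were higher and 11 lower in PA, 5 higher and 1 lower at an unadjusted p under 0.05 (7.33% and 5.14% of all genes), and 7 and 1 without SED 1 and SED 3 (5.68% and 4.19%), with medians of 0.085 and 0.088. Sft2d3 and Sft2d1, relatives of a yeast protein of vesicle fusion at the Golgi, both lay higher without overlap. Sft2d3 read 6.79, 7.06, 6.89 and 6.93 in PA and 5.99, 6.12, 6.40 and 6.04 in SED, a fold of 1.72 (0.78 ± 0.13), and Sft2d1 differed by 0.64 ± 0.20. Vamp4, a SNARE of the trans-Golgi network, differed by 0.64 ± 0.19 and Golga5, a golgin, by 0.35 ± 0.11, each without overlap. Chromatin modifiers had 20 of 38 higher and 18 lower, with 4 higher and 1 lower at that p (7.33% and 5.14% of all genes); their median of 0.030 turned to -0.048 with quantile normalization. Ing3, a subunit of the NuA4 acetyltransferase complex, was higher (0.50 ± 0.11) and Hdac4, a deacetylase that restrains hypertrophic genes in heart muscle, was lower (-0.40 ± 0.14), both without overlap.

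In TGF-beta and BMP signalling, 19 of 31 genes were higher and 11 lower, with 5 higher and 2 lower at an unadjusted p under 0.05 (7.33% and 5.14% of all genes) and 4 and 1 without overlap (4.02% and 2.87%). The median of 0.070 was 0.10 without SED 1 and SED 3 and turned to -0.022 with quantile normalization. Bambi, a decoy receptor that dampens TGF-beta signals, read 6.93, 6.85, 6.60 and 6.64 in PA and 6.04, 6.24, 6.10 and 6.33 in SED. Its groups lay apart, by 0.58 ± 0.11 (adjusted p = 0.164, limma) and by 0.47 without SED 1 and SED 3. Smad2, which carries the signal to the nucleus, differed by 0.49 ± 0.14, without overlap. Tgfbr3, the co-receptor betaglycan, was lower by the means (-0.29 ± 0.11), and Bmp2, a ligand, higher (0.44 ± 0.18, and 0.18 without SED 1 and SED 3), both with overlap. Genes of the extracellular matrix had 23 of 34 higher and 10 lower (median 0.10, and 0.080 without SED 1 and SED 3), with 0 at that p in either direction.

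Myh6, Myh7, Nppa, Nppb, Atp2a2 and Hspa1a, named here whatever their values, differed by less than their SE with 12 arrays. Of 20 sarcomere and Z-disc genes 12 were higher and 8 lower, with a median of 0.015 (-0.010 without SED 1 and SED 3) and 0 at an unadjusted p under 0.05. Des, with the smallest p of that list, differed by -0.1125 ± 0.080 (-0.0575 without SED 1 and SED 3), with overlap. Of 19 genes of the fetal program and hypertrophy, 12 were higher and 7 lower, with 1 higher (7.33% of all genes) and 0 lower at that p. Their median was 0.035, and -0.035 without SED 1 and SED 3. Myh6, the alpha myosin heavy chain, read 13.11 to 13.17 in PA and 13.13 to 13.22 in SED (-0.038 ± 0.070, and -0.070 without SED 1 and SED 3), and Myh7, the beta chain, read 12.36 to 12.47 and 12.35 to 12.92 (-0.13 ± 0.14, and -0.033 without them), with SED 1 as the highest array. The natriuretic peptides, which rise with wall stress, differed by 0.21 ± 0.32 (Nppa) and 0.13 ± 0.17 (Nppb), and both had a negative difference without SED 1 and SED 3 (-0.050 and -0.035). Atp2a2, the calcium pump of the sarcoplasmic reticulum, differed by 0.010 ± 0.070, and Hspa1a, an inducible heat shock protein, by 0.11 ± 0.17 (0.27 without SED 1 and SED 3). The 95% intervals of these differences were -0.19 to 0.11 for Myh6 and -0.14 to 0.16 for Atp2a2, and wider for Myh7 (-0.42 to 0.17), Nppb (-0.24 to 0.50), Hspa1a (-0.25 to 0.48) and Nppa (-0.49 to 0.91).

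Of 19 genes of calcium cycling, 14 were higher and 5 lower, with 2 higher (7.33% of all genes) and 0 lower at an unadjusted p under 0.05. The median was 0.035, and 0.0050 without SED 1 and SED 3, beside 0.048 and 0.035 over all tested genes. Cacna2d1, a subunit of voltage-gated calcium channels, read 9.34, 8.88, 9.08 and 9.22 in PA and 8.14, 8.74, 8.95 and 8.40 in SED, with PA 2 inside the SED range (0.57 ± 0.19, and 0.56 without SED 1 and SED 3). Itpr2, an inositol trisphosphate receptor that releases stored calcium, lay higher without overlap (0.49 ± 0.17, and 0.35 without SED 1 and SED 3).

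Membrane channels of excitation had 12 of 19 genes higher and 3 at an unadjusted p under 0.05, all higher, in both the fit of 12 arrays (7.33% of all genes) and that without SED 1 and SED 3 (5.68%). The median of 0.038, under the 0.048 of all tested genes, was -0.0033 with quantile normalization. Kcnj3 and Kcnj5 encode the subunits of the acetylcholine-gated potassium channel of the atria. Kcnj3 read 9.60, 9.30, 9.76 and 9.89 in PA and 8.94, 9.22, 9.31 and 9.16 in SED, so that only PA 2 reached into the SED range, and differed by 0.48 ± 0.13; Kcnj5 differed by 0.46 ± 0.16. Kcnd2, a channel of the transient outward current, lay higher without overlap (0.59 ± 0.22). Atrial markers, to which Kcnj3 belongs, had 7 of 10 higher and 3 lower (median 0.035, and -0.0042 with quantile normalization), with list means of 0.05, -0.02, 0.06 and 0.06 around the overall mean on PA arrays and -0.17, 0.03, 0.10 and -0.22 on SED arrays. Whether atrial tissue in the samples had a part in the Kcnj3 difference was not tested.

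The direction of immune genes differed between lists and fits. With 12 arrays, 6 of 6 B and T cell markers were lower in PA, while 5 of 8 neutrophil and blood markers were higher. Without SED 1 and SED 3 the counts were 4 of 6 lower and 4 of 8 higher, and without SED 1 alone 1 of 8 was higher. Of 11 B and T cell markers on the array, 5 lay below the limit of 4.94, and Cd3e (4.98) and Cd247 (4.985) were just above it. In the dimmest of 10 bins of all tested probe sets by mean log2, 36.4% were higher in PA. Of 28 genes of inflammation and interferon, 9 were higher and 19 lower in PA, with 4 lower (beside 5.14% of all genes) and 0 higher at an unadjusted p under 0.05, and a median of -0.083 (-0.059 without SED 1 and SED 3). Without SED 3 alone, 16 were lower, the median was -0.044 and the mean 0.015. Irf1, a transcription factor of the interferon response, read 6.40, 6.75, 6.69 and 6.66 in PA and 7.25, 6.77, 7.34 and 7.04 in SED, without overlap, a difference of -0.48 ± 0.15 that was -0.28 without SED 1 and SED 3. Ubd, an interferon-induced ubiquitin-like modifier, had the most negative difference at that p among genes by their brightest probe set. It read 5.87, 5.58, 5.49 and 5.88 in PA and 6.66, 6.00, 7.54 and 8.40 in SED, where SED 4 was the highest array, and the SED mean was above the PA mean by 1.45 on the log2 scale (SE 0.39). Psmb9, an immunoproteasome subunit, differed by -0.66 ± 0.25.

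Leukocyte and macrophage markers had 9 of 27 genes higher and 18 lower, with a median of -0.088, but the median was -0.25 without SED 1, 0.046 without SED 3 and -0.0075 without both. The mean level over the list was 7.61 to 7.89 in PA and 7.50 to 8.47 in SED, with SED 3 at the top. For Cd14, a monocyte receptor for bacterial lipopolysaccharide, PA read 6.37, 5.73, 6.21 and 6.21 and SED 6.43, 6.72, 7.48 and 6.63, and the difference of -0.69 ± 0.21 was -0.55 without SED 1 and SED 3. The part of blood cells in the immune differences was not tested beyond these values.

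**Figure D3:**
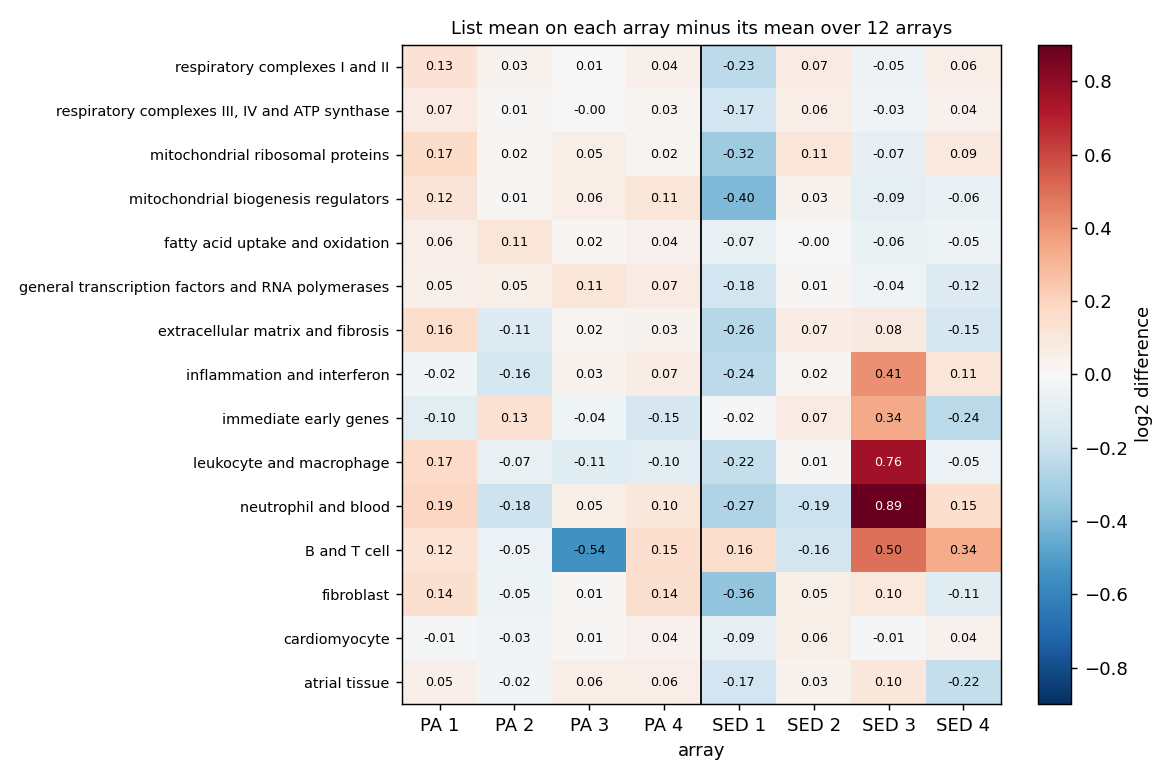
Mean log2 level of 15 gene lists on each PA and SED array, as the difference from the list's mean over 12 arrays (red above, blue below, value in each cell). SED 3 stands out for leukocyte (0.76) and blood (0.89) markers and SED 1 for mitochondrial regulators (-0.40), while the fatty acid list is above 0 on all 4 PA arrays and below 0 on all 4 SED arrays, as are calcium cycling and ion channels of excitation, which are not drawn.

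Genes were also named by a rule over the 4 fits, which share arrays. The rule asked for no overlap of the 8 arrays and an unadjusted p under 0.05 with one sign in each fit. Without overlap the sign cannot turn when SED arrays are left out. The rule then took the 12 higher and 12 lower genes whose largest p was smallest. Their adjusted p was 0.164 to 0.174 with all arrays and 0.201 to 0.220 without SED 1 and SED 3 (limma). The 12 higher genes were 1.31-fold to 1.84-fold above SED. Besides Sft2d3, Taf4b, Mterf1 and Gtf2e1 they were Ggcx, Hddc2, Manba, Ppm1d, Arsk, Irak1, Zfp746 and Wac-ps1.

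Ggcx, the vitamin K-dependent gamma-glutamyl carboxylase, read 6.35, 6.38, 6.40 and 6.46 in PA and 5.91, 5.80, 6.07 and 5.82 in SED, a fold of 1.41 (0.50 ± 0.098). Manba, lysosomal beta-mannosidase, read 7.27, 7.06, 7.13 and 7.03 against 5.98, 6.47, 6.79 and 6.70 (0.64 ± 0.15), and Arsk, a lysosomal sulfatase, read 8.36, 8.33, 8.37 and 8.41 against 7.38, 7.67, 8.06 and 7.90 (0.62 ± 0.14). In both, the PA arrays were close together and SED 1 was the lowest SED array.

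Irak1, a kinase of interleukin-1 and Toll-like receptor signalling, read 8.24 to 8.33 in PA and 6.78, 7.96, 7.83 and 7.43 in SED, a fold of 1.74 (0.80 ± 0.20). Ppm1d, a phosphatase that shuts off p53 signalling, read 6.96 to 7.28 in PA and 5.63, 6.52, 6.60 and 6.50 in SED (0.77 ± 0.19, and 0.57 without SED 1 and SED 3). Zfp746, known as PARIS, a zinc finger repressor of Ppargc1a, read 7.86, 7.90, 7.97 and 7.93 against 7.46, 7.49, 7.71 and 7.46, a fold of 1.31 (0.39 ± 0.089). Wac-ps1 is named as a pseudogene copy of Wac, so its probes may also read Wac.

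The 12 lower genes were Grpca, Fcnb, Cdx1, Ribc2, Hook2, Mylk2, C10h17orf67, Dlgap3, Bdkrb2, Adgrb1, Cfap144 and Atrip, with SED 1.35-fold to 1.77-fold above PA. For 4 of them (Cdx1, Cfap144, Dlgap3 and Hook2) the PA mean, 4.70 to 4.91, lay under the limit of 4.94, so they were tested only because other arrays were higher; the SED mean lay under it for 0 of the 12 higher genes. Fcnb, ficolin B, a lectin of myeloid cells that starts the complement cascade, had the most negative difference of the 12. It read 5.09, 4.85, 4.93 and 4.92 in PA and 6.39, 5.42, 5.48 and 5.80 in SED, so that SED 1 was the highest (-0.83 ± 0.18, and -0.66 without SED 1 and SED 3). Bdkrb2, the bradykinin B2 receptor, read 5.39, 5.49, 5.34 and 5.39 in PA and 5.85, 6.01, 5.71 and 6.04 in SED (-0.50 ± 0.12). Its other 2 probe sets, at a mean near 5.05 and 5.04, differed by -0.19 and -0.28 with overlap. Mylk2, the skeletal muscle myosin light chain kinase, read 5.83 to 5.97 in PA and 6.35 to 6.68 in SED (-0.56 ± 0.12).

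**Figure D4:**
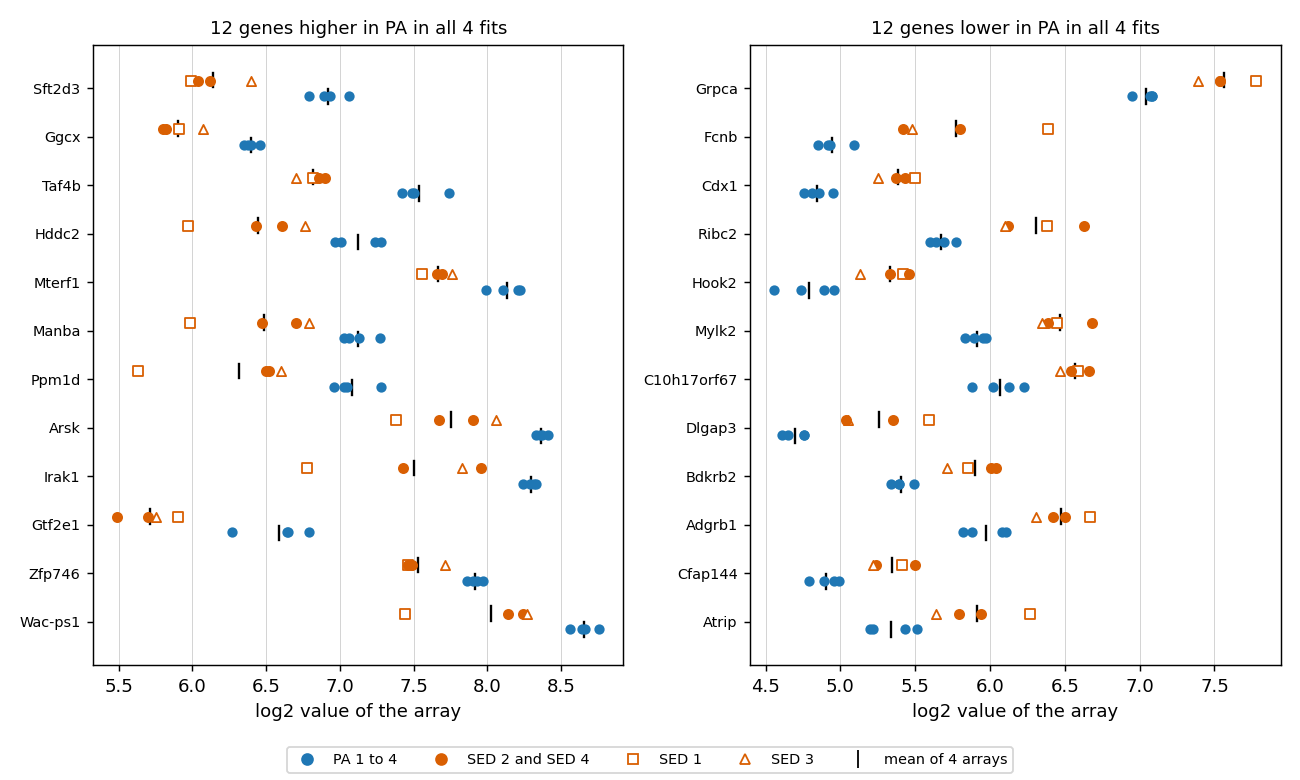
Log2 value (horizontal axis) of each PA array (filled blue circles) and SED array (orange; open square SED 1, open triangle SED 3) for the 12 higher genes (left) and the 12 lower genes (right), with black ticks for group means. The groups do not overlap in any row because the naming rule asked for that; SED 1 is the lowest SED array for Ppm1d, Irak1 and Wac-ps1.

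The lower genes were dim: their mean over 12 arrays was 4.97 to 7.25 with a median of 5.58, against 6.07 to 8.43 with a median of 7.04 for the higher genes. Brightness and direction went together over all probe sets. In the dimmest of 10 bins by mean log2 (4.94 to 5.36) the median difference was -0.12, with 105 probe sets higher and 369 lower at an unadjusted p under 0.05. In the fifth bin (6.87 to 7.42) it was 0.15, and in the brightest (10.6 to 13.4) 0.033. The same shape was present without SED 1 and SED 3, with -0.095, 0.093 and 0.023 in those bins. Quantile normalization, which gives all arrays one distribution, left -0.066, 0.041 and 0.0016 and moved the share of higher probe sets at that p from 60.8% (59.6% without SED 1 and SED 3) to 44.0%. The spread of values within an array differed as well, with an interquartile range of 3.58 to 3.86 on SED arrays and 3.93 to 4.03 on PA arrays. The part of this in the single genes was not tested; after quantile normalization the 12 higher genes differed by 0.28 to 0.83 and the 12 lower ones by -0.83 to -0.39.

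**Figure D5:**
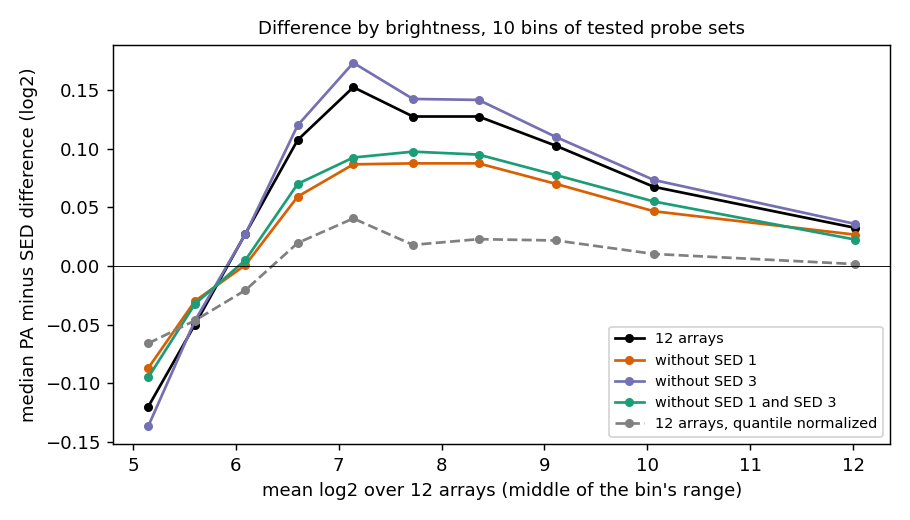
Median PA minus SED difference (log2, vertical axis) in 10 bins of tested probe sets by mean log2 over 12 arrays (horizontal axis, middle of the bin), for the 4 fits (solid lines) and for 12 arrays after quantile normalization (dashed). All 5 lines start below 0 in the dimmest bin, and the fit of 12 arrays peaks at 0.15 in the fifth bin.

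Some larger differences depended on SED 1 and SED 3. Of genes with a mean of at least 7, Cyp11a1, the first enzyme of steroid synthesis, differed by 0.82 ± 0.45 with all arrays and 0.0050 without SED 1 and SED 3, SED 1 being at 5.71 and SED 2 and SED 4 at 7.92 and 8.26. Angpt1, a ligand of the endothelial receptor Tie2, went from 0.96 ± 0.37 to 0.27. Camk2n1, an inhibitor of CaM kinase II, turned from -0.44 ± 0.45 to 0.24. Zfp878 went the other way, from 0.32 ± 0.37 to 1.04 (adjusted p = 0.205, limma), with SED 1 at 8.41 and SED 2 and SED 4 at 6.39 and 6.43. Rfx4 read 5.99 to 8.97 in PA and 8.79, 5.17, 8.99 and 2.49 in SED, and differed by 3.78 without SED 1 and SED 3, with SED 2 and SED 4 both under every PA array.

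EX arrays gave a further reading of the same genes. A difference of EX from SED would share the SED arrays with that of PA from SED, so none is given. Between EX and PA, 0 probe sets passed the threshold (0%), and 534 (2.87%) were at an unadjusted p under 0.05 (limma, 12 arrays). An even spread of p-values would give 931. The EX mean was 7.29 for Taf4b, 8.08 for Mterf1, 6.26 for Ggcx and 5.91 for Gtf2e1.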

How the data were processed

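Per the labels, cRNA from left ventricular RNA was hybridised to 12 arrays, and the authors deposited log2 values for 31099 rows in 1 table. MAS5 and RMA both appear in the submitters' processing notes and the table could come from either, so background correction and exact scale are unknown. Array medians spanned 0.08 and no further scaling was applied. Control rows (57) were left out. Gene names come from rows with 1 symbol (20826; 436 had several and 9780 none), and the brightest tested row stands for a gene.

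The model was fitted in limma 3.58.1 (R 4.3.3) to 12 arrays with a mean per group, leaving 9 residual degrees of freedom. Its tests are two-sided and moderated, with Benjamini-Hochberg adjustment over tested rows and a threshold of 0.05, and errors are its standard errors. Fits without SED 1, without SED 3 and without both followed the same form. The 34 pathway and 13 marker lists (1265 entries, 1142 on the array, 1046 tested) are described by counts and medians only. The members and lists were chosen with earlier results of these data known. Named genes are those of the rule in the text, the 5 largest differences each way at an unadjusted p under 0.05, up to 4 genes per list by p, the 5 each way that moved most without SED 1 and SED 3, and, whatever their values, Myh6, Myh7, Nppa, Nppb, Atp2a2, Dbp, Hspa1a, Pdk4, Ppargc1a and Ucp3. Alternatives are listed with their effects in the closing section. The steps were tested on simulated data, and figures were drawn with matplotlib 3.10.9. Arrays carry no read depth, and their number limits the precision.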

Additional observations from a re-analysis of the deposited data

Results flagged for a closer look

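Of 236 groups of 4 arrays checked, 10 held 1 array far from the other 3 by Dixon's test, where chance flags about 1 in 20. SED 1 was the low array for 4 genes: Ppargc1a at 10.2 (next 10.68), Ppm1d at 5.63 (next 6.50), Ttc39b at 4.28 (next 5.87) and Wac-ps1 at 7.44 (next 8.14). SED 3 was the high array for C3 at 7.26 (next 6.11) and for Zfp746 at 7.71 (next 7.49). Among PA arrays, PA 4 was low for Grpca at 6.95 (next 7.07) and for Mrpl22 at 9.0 (next 9.35), PA 3 was low for Sct at 4.66 (next 5.29) and PA 2 was low for Sf3a1 at 8.32 (next 8.78).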

How the results depend on the processing

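The count of 0 calls stood under every alternative run but array weights, which gave 1 (Vldlr); without SED 1 and SED 3, quantile normalization gave 1 (Vldlr) and PA and SED arrays alone gave 1, an unnamed probe set at -3.13. Probe sets at an unadjusted p under 0.05 came to 1070 higher with quantile normalization, 3522 lower with no filter, 232 lower with the upper 40%, and 945 higher and 578 lower with probe sets of a gene averaged, where fewer features are tested. The median difference was -0.030 with no filter. Genes without overlap came to 214 higher and 446 lower with quantile normalization, 856 lower with no filter and 75 lower with the upper 40%; leaving out 1 array gave 553 to 792 higher and 365 to 506 lower, and leaving out SED 1 and SED 3 gave 1230 and 788, as fewer arrays can overlap. Of 2321 values of 118 genes under alternatives, 25 had the opposite sign and 1 was at 0, in 13 genes together. These were Atp2a2 with centring (0), Myh6 with averaging (0.12), and with array weights Dbp (-0.043), Mt2A (0.029), Nppa (-0.027) and Nppb (-0.046). Without SED 1 and SED 3 they were Atp2a2 (-0.0050), Camk2n1 (0.24), Dbp (-0.13), Mt2A (0.48), Nppa (-0.050), Nppb (-0.035), Retsat (0.40), Sap130 (-0.29) and Smim27 (-0.18). Over the fits without 1 array and that without SED 1 and SED 3 the ranges were -0.86 to 0.40 for Retsat, -0.0067 to 0.023 for Atp2a2, -0.73 to 0.24 for Camk2n1, -0.82 to 0.48 for Mt2A, -0.19 to 0.00083 for Myh7, -0.050 to 0.50 for Nppa, -0.035 to 0.25 for Nppb, -0.13 to 0.27 for Dbp, -0.014 to 0.49 for Pdk4, -0.040 to 3.78 for Rfx4, -0.29 to 0.72 for Sap130 and -0.18 to 0.74 for Smim27. The cause of these moves was not tested. Quantile normalization turned the sign of 19 list medians, and centring turned or brought to 0 that of 4. Deviations of PA and SED arrays of the same replicate number correlated at -0.21, -0.15, 0.046 and 0.027, and 1 of 8 arrays correlated best with its own number. These values show no pairing by replicate number but cannot exclude one. With the replicate block there were 0 calls, 1709 probe sets higher and 1054 lower. Limits: 4 pooled arrays a group, no raw scanner values analysed here, and no detection calls, so dim values may lie near background.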

Other observations

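The unnamed probe set called without SED 1, SED 3 and the EX arrays read 4.65, 4.76, 4.44 and 4.47 on PA arrays, 4.16, 7.47, 7.50 and 7.95 on SED arrays and 6.52, 9.20, 4.40 and 4.68 on EX arrays. With all 12 arrays in the fit its difference was -2.19 (adjusted p = 0.330, limma). It was chosen after its values were seen.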
